A study of Homo sapiens with 15 samples.

Results

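The growth arrest genes of the GADD45 and BTG/TOB families were followed across 15 arrays of the human colon carcinoma line Caco-2. The set was fixed as a list of 8 genes, GADD45A, GADD45B, GADD45G, BTG1, BTG2, BTG3, TOB1 and TOB2, out of 19775 genes with a probe set of their own. Of these 7 matched a probe set, and BTG2 was not analysed here. A filter on low signal, a log2 value of at least 5 on at least 4 of the 12 arrays from cells given fermentation fluid, was passed by 6 of them and by 8737 genes in all. GADD45G did not pass it.

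GADD45 proteins are small acidic nuclear proteins made in response to DNA damage and other stress. They bind the kinase MAP3K4, which lies upstream of the stress kinases p38 and JNK, and they bind PCNA, the inhibitor CDKN1A and the mitotic kinase complex of CDK1 and cyclin B1. BTG and TOB proteins share a domain that binds the deadenylases of the CCR4-NOT complex, which shorten the poly(A) tails of mRNAs, and an excess of them slows cell growth. Butyrate, a short-chain fatty acid that colonic bacteria make from fibre, inhibits histone deacetylases and slows the growth of colon carcinoma lines in culture.

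All cells were Caco-2 cells that had not been differentiated, treated for 24 h in medium without serum, and each treatment was read on 1 array of total RNA. Single arrays came from medium alone, from 100 mM NaCl and from 5 mM butyrate. The other 12 arrays came from cells given 10% by volume of cleared fluid from a colon simulator, run for 48 h with 0%, 1% or 2% polydextrose, a poorly digested glucose polymer. The simulator has 4 vessels in series, and fluid was taken from each: vessel 1 stands for the ascending colon, vessel 2 for the transverse colon, vessel 3 for the descending colon and vessel 4 for the sigmoid colon and rectum. The 0% fluids went through the same simulator and hold whatever the bacteria made without polydextrose. The labels name 1 simulation per concentration, so a difference between simulations and the polydextrose concentration cannot be told apart, and the 4 vessels of a simulation share their contents. The p-values therefore measure only the spread among these 12 arrays, which may be technical, and their number limits the precision. There is no replicate of medium, NaCl or butyrate.

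In the RefSeq annotation of GRCh38.p14, GADD45A lies at chr1:67685201-67688334, GADD45B at chr19:2476127-2478257 and GADD45G at chr9:89605012-89606555. BTG1 lies at chr12:92140278-92145846, BTG3 at chr21:17593653-17612901, TOB1 at chr17:50862223-50867978 and TOB2 at chr22:41433494-41446801. The same annotation lists the pseudogenes GADD45AP1, BTG1P1, BTG3P1 and TOB2P1, the antisense genes BTG3-AS1 and TOB1-AS1 that overlap BTG3 and TOB1, and BTG1-DT next to BTG1. A probe that also matches such a copy cannot be told from one that reads the gene, so the values of GADD45A, BTG1, BTG3, TOB1 and TOB2 carry that uncertainty. For each gene the probe set of highest mean level was used, and the 18 probe sets of the 7 genes are compared further on.

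The 250 bases before the start of GADD45B, BTG1 and BTG3 are shown. GADD45B and BTG1 were above medium on all 12 fluid arrays while BTG3 lay below medium on each of them. TOB1 was also above medium on all 12 and TOB2 below medium on all 12, but their windows are described without being printed. The share of all genes that lay likewise above or below the single medium array was not counted, so this does not set the members apart from other genes. The sequences are RefSeq's, of GRCh38.p14, each read 5′ to 3′ along the strand of the gene. They cover chr19:2475877-2476126 on the plus strand for GADD45B, chr12:92145847-92146096 on the minus strand for BTG1 and chr21:17612902-17613151 on the minus strand for BTG3. Capitals mark matches on either strand to the E box CACGTG, the CCAAT box (reverse ATTGG), the GC box GGGCGG (reverse CCGCCC), the core of the cAMP response element TGACG (reverse CGTCA) and the TATA box TATAAA (reverse TTTATA).
GADD45B: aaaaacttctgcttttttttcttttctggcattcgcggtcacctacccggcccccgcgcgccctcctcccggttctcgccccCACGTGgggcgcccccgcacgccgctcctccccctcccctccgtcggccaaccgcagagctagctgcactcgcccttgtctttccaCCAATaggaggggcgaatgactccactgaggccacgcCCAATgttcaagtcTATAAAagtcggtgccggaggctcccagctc
BTG1: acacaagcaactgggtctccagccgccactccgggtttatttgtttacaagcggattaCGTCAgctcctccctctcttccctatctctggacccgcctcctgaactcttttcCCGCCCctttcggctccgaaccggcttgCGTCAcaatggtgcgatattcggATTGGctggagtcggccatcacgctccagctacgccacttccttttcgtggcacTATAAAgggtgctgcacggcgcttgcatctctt
BTG3: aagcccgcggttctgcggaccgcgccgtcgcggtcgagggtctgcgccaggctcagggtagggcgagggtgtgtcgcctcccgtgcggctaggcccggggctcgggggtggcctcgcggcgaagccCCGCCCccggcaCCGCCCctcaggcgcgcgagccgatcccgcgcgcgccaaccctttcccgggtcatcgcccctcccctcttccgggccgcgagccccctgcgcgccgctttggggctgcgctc

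The window of GADD45B held 1 E box, 2 CCAAT boxes and a TATA box 31 to 26 bases before the start. That of BTG1 held a TATA box 33 to 28 bases before the start, 1 CCAAT box, 1 GC box and 2 cores of the cAMP response element. The window of BTG3 held 2 GC boxes and no match to the other letters, and its GC content was 78.4%, against 63.2% for GADD45B and 56.4% for BTG1. Over 35116 windows of the same length the median GC content was 58.0%, and an E box was found in 6.34%, a CCAAT box in 32.0%, a GC box in 42.6%, the cAMP response core in 21.2% and a TATA box in 10.7%. GADD45G, which was under the signal limit, also held 1 E box and 1 CCAAT box. TOB1 had 2 windows, and window 1 held no match at a GC content of 38.4%. Window 2 of TOB1 held 3 GC boxes, 1 CCAAT box, 1 cAMP response core and no TATA box at 80.4%. The window of TOB2 held 2 GC boxes and no other match at 68.4%. A match is a description of the letters and shows neither binding nor a cause.

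Between 42.3% and 44.1% of genes reached a log2 value of 5 on each array. Of 9 markers of the intestinal epithelial line 6 were at 5 or more on all 15 arrays (EPCAM, CDH1, KRT8, KRT18, KRT19 and KRT20), while VIL1, CDX1 and CDX2 were under 5 on all 15. None of 5 markers of differentiated enterocytes, 4 of leukocytes or 3 of endothelium reached 5 on any array, and of 6 fibroblast markers COL1A1 did, on 13 arrays. RNA quality was read from ACTB, as the log2 level of its 3′ probe set minus that of its 5′ probe set, which grows as RNA degrades; this value was 0.951 in medium, 0.620 to 0.924 in vessel 1 and 0.366 to 0.641 on the other arrays. Medium, the control of every single-array comparison, thus had the highest ACTB value. The same difference for GAPDH was -0.11 in medium, within a range of -0.12 to 0.04 over the 15 arrays. The part of RNA quality in the results was not tested.

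GADD45B, which binds MAP3K4 and is induced within hours of stress or cytokine signals, was the member with the widest range. Its log2 level was 8.42 in medium, 8.15 in NaCl and 10.68 in butyrate. With 0% fluids it was 9.07, 9.78, 9.65 and 9.68 in vessels 1 to 4, with 1% fluids 9.39, 10.13, 10.22 and 10.15, and with 2% fluids 9.37, 10.40, 10.51 and 10.43. All 12 fluid arrays lay above medium and NaCl and below butyrate, and vessel 1 was the lowest at each concentration. In vessels 2 to 4 the levels of the 3 concentrations did not overlap, and the mean was 9.70 ± 0.07, 10.17 ± 0.05 and 10.44 ± 0.06 (SD, n = 3) at 0%, 1% and 2%.

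GADD45A, a target of p53 that also responds to stress without p53, was 10.54 in medium, 9.67 in NaCl and 10.23 in butyrate. With 0% fluids it was 10.01, 11.05, 10.91 and 11.38 in vessels 1 to 4, with 1% fluids 11.07, 11.16, 11.57 and 11.40, and with 2% fluids 10.76, 11.20, 11.31 and 11.46. It was above medium on 11 of 12 fluid arrays, the exception being vessel 1 at 0%, and the butyrate array was below medium. The concentrations overlapped. GADD45G, the third family member, was between 2.55 and 3.41 on all 15 arrays, under the limit of 5, and its differences were not tested.

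**Figure D1:**
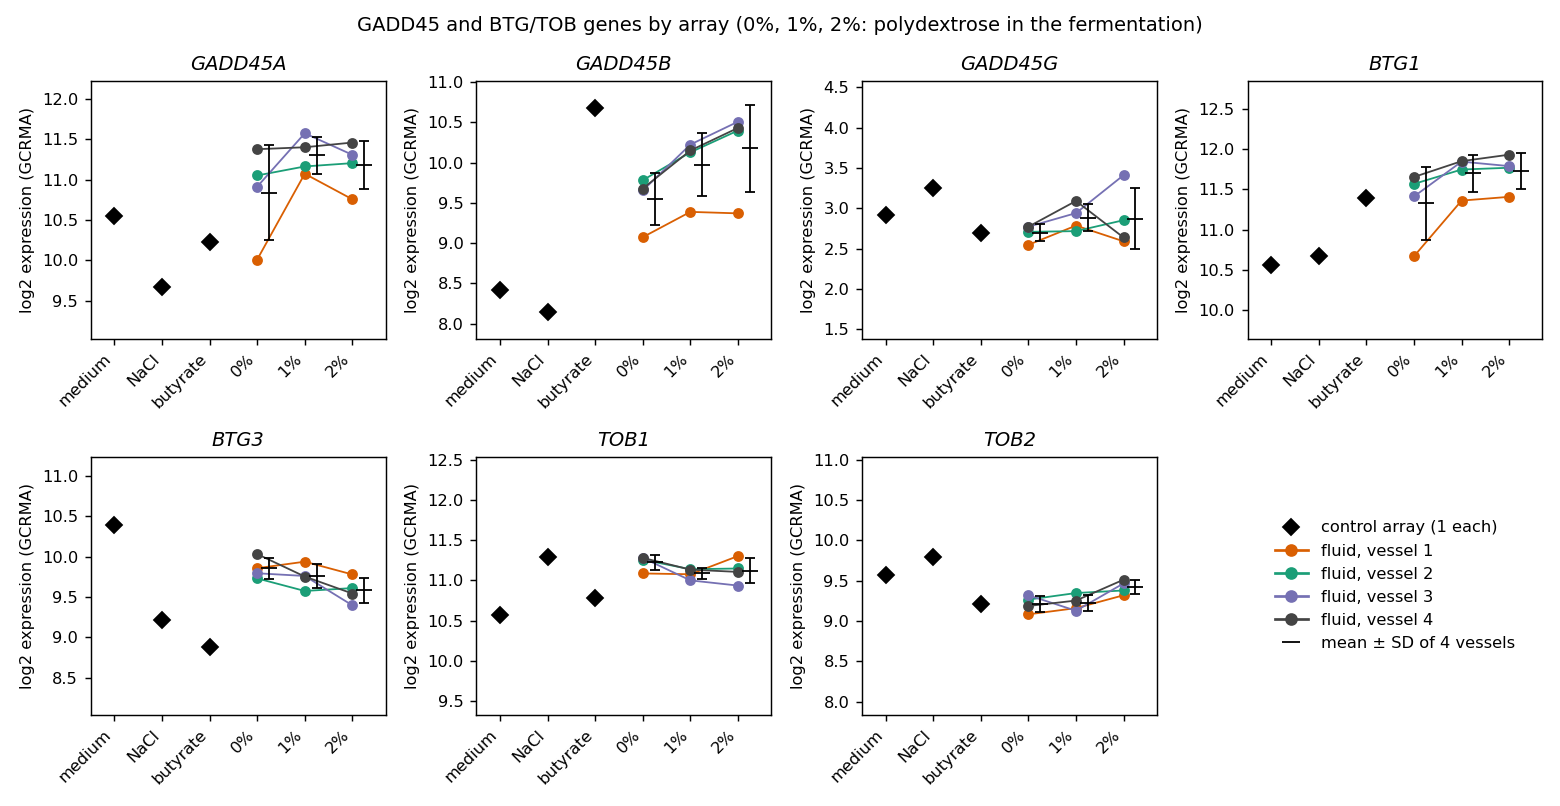
Log2 expression of 7 genes on the 15 arrays. Diamonds are the single arrays of medium, NaCl and butyrate, coloured lines join the 3 concentrations of polydextrose within a vessel, and black bars are the mean ± SD of the 4 vessels; each panel has its own axis of equal span. GADD45B is higher at each step of concentration in vessels 2 to 4 and lowest in vessel 1, while BTG3 lies below medium on every other array.

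BTG1, an antiproliferative gene that is high in resting cells and falls as they enter the cycle, was 10.56 in medium, 10.67 in NaCl and 11.39 in butyrate. With 0% fluids it was 10.67, 11.57, 11.41 and 11.65 in vessels 1 to 4, with 1% fluids 11.36, 11.75, 11.84 and 11.85, and with 2% fluids 11.41, 11.77, 11.79 and 11.93. All 12 fluids were above medium, 10 of them also above butyrate, and vessel 1 was the lowest at each concentration. In vessels 2 to 4 each array at 1% or 2% lay above each at 0%, whereas 1% and 2% overlapped.

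BTG3, a family member that binds and represses the cell cycle factor E2F1, had its highest level in medium, at 10.39, against 9.21 with NaCl and 8.88 with butyrate. It was 9.86, 9.73, 9.79 and 10.03 in vessels 1 to 4 with 0% fluids, 9.94, 9.57, 9.76 and 9.75 with 1%, and 9.78, 9.61, 9.40 and 9.54 with 2%. All 12 fluids thus lay between medium on one side and NaCl and butyrate on the other. In each vessel the 2% array was below the 0% array, although the groups overlapped.

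TOB1, which joins CCR4-NOT to its mRNA targets, was 10.57 in medium, 11.29 in NaCl and 10.78 in butyrate. It was 11.09, 11.26, 11.28 and 11.28 in vessels 1 to 4 with 0% fluids, 11.08, 11.14, 11.00 and 11.13 with 1%, and 11.30, 11.15, 10.94 and 11.11 with 2%. All 12 fluids were above medium and butyrate, and 11 were below NaCl. TOB2, its close relative, was 9.57 in medium, 9.79 in NaCl and 9.21 in butyrate, then 9.08, 9.27, 9.32 and 9.19 with 0% fluids, 9.16, 9.35, 9.13 and 9.25 with 1%, and 9.32, 9.38, 9.47 and 9.51 with 2%. All 12 fluids were below medium, where those of TOB1 were above it, and below NaCl. In each vessel the 2% array was the highest of its 3.

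The first comparison set butyrate against medium. GADD45B was higher by 2.25 on the log2 scale, or 4.77-fold, and BTG3 was lower, at a log2 difference of -1.51 or 0.351 times medium. These were the 2 of 6 members past 2-fold, a limit that 31.2% of 8057 genes passed, 15.6% higher and 15.6% lower. BTG1 was 0.84 higher and TOB1 0.22 higher, while GADD45A differed by -0.32 and TOB2 by -0.36. These values are log2 differences of 1 array from 1 array with no test, and a change in the share of cells with a transcript cannot be told apart from a change in transcript per cell. With NaCl in place of medium as the control, GADD45B alone was past 2-fold, as BTG3 was also low with NaCl. With the mean of each gene's probe sets BTG1 was past 2-fold, at 1.07, and BTG3 was not, at -0.64. The mean of BTG1 includes 1559975_at, which was under 5 on every array and differed by 1.28. The probe sets of BTG1 with signal differed by 0.84 and 1.10. The mean of BTG3 likewise includes 1556213_a_at, under 5 on every array.

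NaCl against the same medium array gave a different order. BTG3 was the 1 member of 6 past 2-fold, at -1.18 or 0.441 times medium, against 16.6% of 7874 genes past it, 8.93% higher and 7.67% lower. GADD45A differed by -0.87, TOB1 by 0.72, GADD45B by -0.28, TOB2 by 0.23 and BTG1 by 0.12. At a 1.5-fold limit GADD45A, BTG3 and TOB1 passed, but the share of all genes past that limit was not computed. The other probe sets of GADD45B above the signal limit differed by 0.03 and -0.01. With the mean of each gene's probe sets no member passed 2-fold with NaCl, as the value of BTG3 became -0.53.

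Fluid without polydextrose was compared with that medium array, and the mean of GADD45B was higher by 1.12, or 2.18-fold. It was the 1 of 6 members past 2-fold, where 12.6% of 7820 genes were past it, 7.81% higher and 4.8% lower, and vessel 1 alone gave 0.65 against 1.23 to 1.36 in the other vessels. BTG1 was 0.77 higher, with 0.11 in vessel 1 and 0.85 to 1.10 in the others, TOB1 was 0.66 higher and GADD45A 0.29 higher. BTG3 differed by -0.54 and TOB2 by -0.35. With the mean of the probe sets GADD45B was under the 2-fold limit, at a log2 difference of 0.998. That mean includes 213560_at, which was under 5 on every array. The other probe sets of GADD45B, 209304_x_at and 209305_s_at, differed by 0.70 and 0.81 in vessel 1. In the other vessels they differed by 1.48 to 1.67 and by 1.66 to 1.87.

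The 1% and 2% fluids share the medium array as their control. GADD45B was higher than medium by 1.55 with 1% and by 1.75 with 2%, which is 2.93-fold and 3.37-fold, and BTG1 was higher by 1.14 and 1.17, or 2.21-fold and 2.24-fold. These 2 of 6 members were past 2-fold at both concentrations, while 19.7% of 7898 genes were past it with 1% (10.8% higher and 8.88% lower) and 23.2% of 7925 with 2% (11.7% higher and 11.4% lower). GADD45A was higher by 0.76 and 0.64, and TOB1 by 0.52 and 0.56. BTG3 differed by -0.64 and -0.81 and TOB2 by -0.34 and -0.15. With NaCl in place of medium GADD45A was also past 2-fold at both, by 1.63 and 1.51. The array nearest to butyrate for GADD45B was 2% in vessel 3, at 2.08 above medium.

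**Figure D2:**
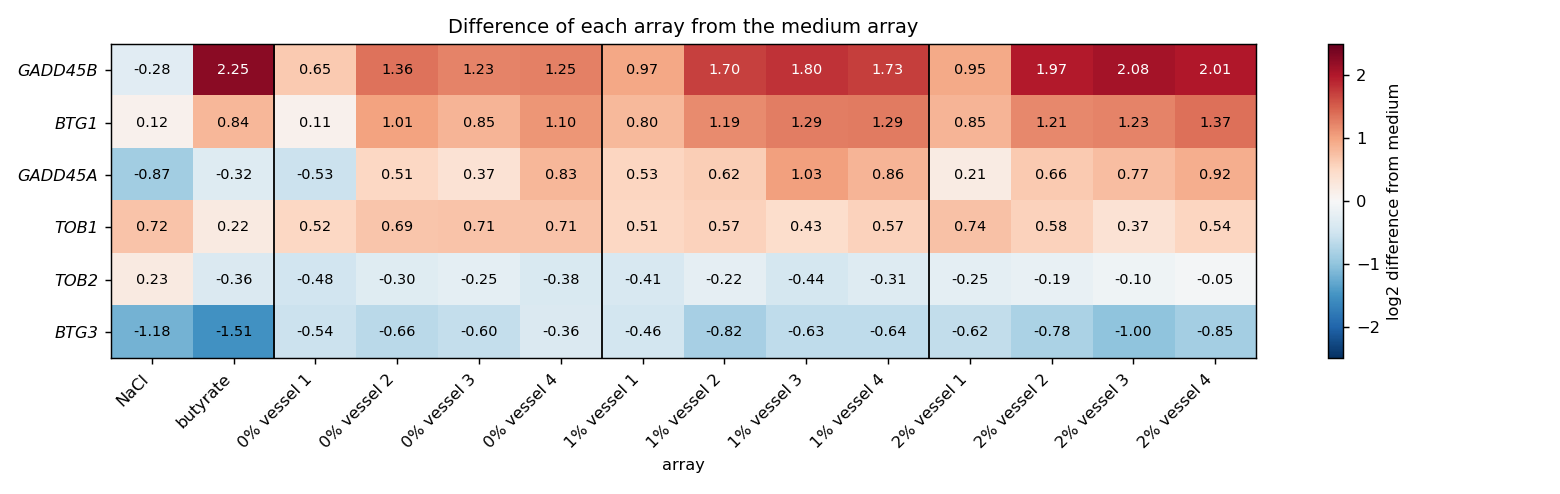
Log2 difference of each of 14 arrays from the medium array for the 6 members above the signal limit, with red for higher and blue for lower. GADD45B runs from 0.65 to 2.08 in the fluids and is 2.25 with butyrate, and BTG3 is below medium on all 14 arrays.

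The next question was whether the members changed with the polydextrose concentration among the 12 fluids. GADD45B rose by 0.31 per 1% polydextrose on the log2 scale (SE 0.05, adjusted p = 0.00319 by limma), and BTG1 rose by 0.20 per 1% (SE 0.06, adjusted p = 0.0368). These were 2 of the 6 members tested, both higher, where 18.8% of 8737 genes passed, 8.5% higher and 10.3% lower. BTG3 had a slope of -0.14 that missed the threshold (adjusted p = 0.0582 by limma). The slopes of GADD45A (0.17, adjusted p = 0.202), TOB2 (0.10, adjusted p = 0.102) and TOB1 (-0.05, adjusted p = 0.464) did not pass either in limma's test.

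Between 2% and 0% the mean of GADD45B was 10.18 ± 0.54 against 9.55 ± 0.32 (SD, n = 4), a log2 difference of 0.63 with a 95% interval of 0.42 to 0.83 (adjusted p = 0.00304 by limma), or 1.55-fold. It was higher in 4 of 4 vessels, with differences of 0.30, 0.62, 0.85 and 0.75 from vessel 1 to vessel 4. BTG1 was 11.72 ± 0.22 against 11.33 ± 0.45 (SD, n = 4), a difference of 0.40 with an interval of 0.18 to 0.62 (adjusted p = 0.0225 by limma), or 1.32-fold. Its difference was 0.74 in vessel 1 and 0.20, 0.38 and 0.28 in vessels 2 to 4. These 2 of 6 members passed where 20.8% of genes did, 9.65% higher and 11.2% lower.

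GADD45B kept its slope and its difference of 2% from 0% in all 12 fits that left out 1 array, with adjusted p-values of 0.00125 to 0.0187 and of 0.000708 to 0.0175 by limma. The slope of BTG1 passed in 3 of 12 such fits (adjusted p = 0.0231 to 0.121) and its difference of 2% from 0% in 8 of 12. The latter was lost without 0% vessel 3 (adjusted p = 0.0752) and without 2% vessel 2, 3 or 4 (adjusted p = 0.0540, 0.0594 and 0.0653 by limma). With vessel taken out of the model neither gene passed, at adjusted p = 0.202 for the slope of GADD45B and 0.249 for that of BTG1. Without the 3 arrays of vessel 1 both passed, GADD45B at 0.37 per 1% (adjusted p = 0.000474) and BTG1 at 0.14 (adjusted p = 0.0372), and so did BTG3, which then fell by 0.17 per 1% (adjusted p = 0.0230 by limma).

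Of the 0.40 between 2% and 0% in BTG1, 0.37 lay between 0% and 1%, while GADD45B was higher again at 2% in vessels 2 to 4. At 1% against 0% GADD45B was 9.97 ± 0.39 against 9.55 ± 0.32 (SD, n = 4), higher by 0.43 (adjusted p = 0.0360 by limma), the 1 member of 6 that passed, where 4.78% of genes did, 2.63% higher and 2.15% lower. That call held in 3 of 12 fits that left out 1 array, with adjusted p-values up to 0.139. BTG1 was higher by 0.37 and GADD45A by 0.47, each in 4 of 4 vessels, and neither passed (adjusted p = 0.0614 and 0.104 by limma). At 2% against 1% limma passed 0 of the 6 members and 0.0% of 8737 genes, and 1 member, TOB2, and 1608 genes had an unadjusted p under 0.05. GADD45B was higher by 0.20 in that step, with 0.27, 0.28 and 0.28 in vessels 2 to 4 and -0.02 in vessel 1. The comparisons with 0% share the 4 arrays of 0%.

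The members that did not pass are bounded by their intervals for 2% against 0%. The log2 difference of GADD45A was 0.34 with a 95% interval of 0.00 to 0.69, that of TOB2 0.21 with 0.04 to 0.37, that of TOB1 -0.10 with -0.30 to 0.09, and that of BTG3 -0.27 with -0.47 to -0.07. The value of GADD45A rested on 0% vessel 1: without that array it was 0.18, and its slope was 0.07 and its difference of 1% from 0% 0.30. Before adjustment over all genes 5 of the 6 members had p under 0.05 in this comparison, all but TOB1, and 3184 of 8737 genes did. TOB2 was higher at 2% than at 0% in 4 of 4 vessels, and BTG3 was lower in 4 of 4. In vessels 2 to 4 the ACTB difference was 0.582 to 0.636 at 0%, 0.366 to 0.534 at 1% and 0.547 to 0.551 at 2%, and its part in these results was not tested.

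**Figure D3:**
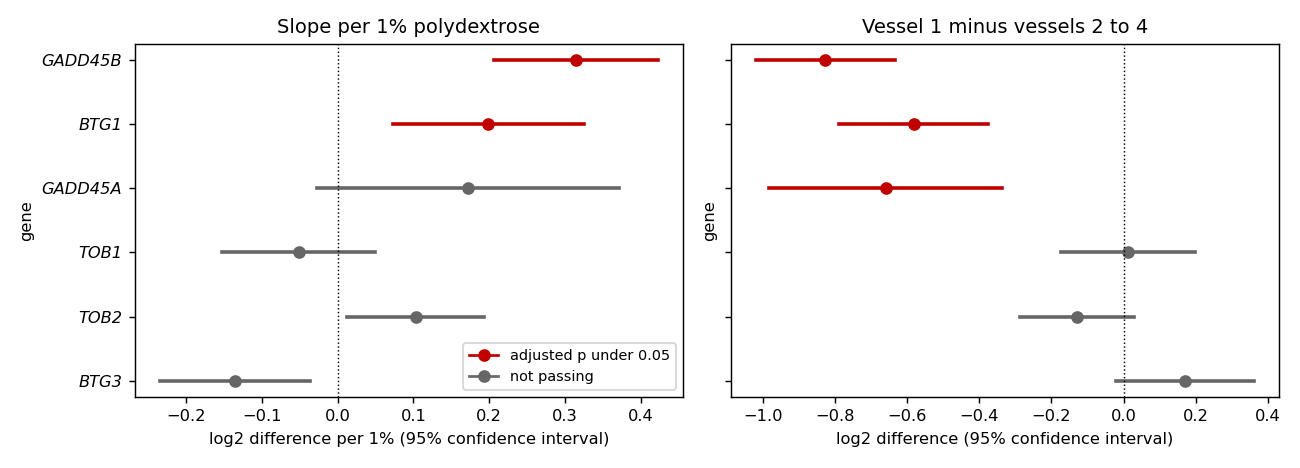
Estimates from limma for 6 members with 95% confidence intervals, on the left the log2 slope per 1% polydextrose and on the right vessel 1 minus the mean of vessels 2 to 4; red marks an adjusted p under 0.05. GADD45B and BTG1 are red in both panels and GADD45A on the right only.

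The same fit compared vessel 1, the ascending colon, with vessels 2 to 4. GADD45B, BTG1 and GADD45A were lower in vessel 1, at 0.564, 0.668 and 0.633 times the level of the others, and vessel 1 was the lowest vessel at 3 of 3 concentrations for each of them. GADD45B was 9.28 ± 0.18 (SD, n = 3) in vessel 1 against 10.10 ± 0.33 (SD, n = 9), a log2 difference of -0.83 with a 95% interval of -1.02 to -0.63 (adjusted p = 0.000613 by limma). GADD45A differed by -0.66 with an interval of -0.98 to -0.34 (adjusted p = 0.00819), and BTG1 by -0.58 with -0.79 to -0.38 (adjusted p = 0.00229 by limma). All 3 passed in each of the 12 fits that left out 1 array, although GADD45A was then -0.44 without 0% vessel 1.

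These 3 of 6 members passed where 34.7% of genes did, 19.3% higher and 15.4% lower in vessel 1. The other 3 did not pass: BTG3 differed by 0.17 (adjusted p = 0.148), TOB2 by -0.13 (adjusted p = 0.175) and TOB1 by 0.01 (adjusted p = 0.916 by limma), with 95% intervals of -0.02 to 0.36, -0.29 to 0.03 and -0.17 to 0.20. The ACTB difference was 0.620 to 0.924 in vessel 1 and 0.366 to 0.636 in vessels 2 to 4, and its part in this result was not tested. A linear trend over all 4 vessels, signed towards vessel 1, gave -0.25 per vessel for GADD45A (adjusted p = 0.0473), -0.20 for BTG1 (adjusted p = 0.0495) and -0.25 for GADD45B (adjusted p = 0.0620 by limma). For GADD45B vessels 2, 3 and 4 lay within 0.13 of each other at each concentration.

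Whether the slope in vessel 1 differed from that in vessels 2 to 4 was tested directly, and limma passed 0 of 6 members, where 1.17% of genes passed, 0.824% with a positive and 0.343% with a negative difference. At an unadjusted p under 0.05 there were 3 of 6 members and 1739 of 8737 genes. For these 3 the slope in vessel 1 minus that in vessels 2 to 4 was 0.23 for BTG1 (adjusted p = 0.191), 0.21 for TOB1 (adjusted p = 0.162) and -0.22 for GADD45B (adjusted p = 0.157 by limma). With array weights these 3 passed. In the alternatives other than leaving out 1 array, the count over all genes or probe sets tested ran from 13 to 2053, against 102 in the main fit. The value of BTG1 was 0.03 without 0% vessel 1 and 0.42 without 2% vessel 1, and 0.06 on its other probe set, 200920_s_at. On the other probe sets of GADD45B the difference was -0.11 and -0.09. GADD45B in vessel 1 was 9.07, 9.39 and 9.37 along the concentrations, and BTG1 was 10.67, 11.36 and 11.41.

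**Figure D4:**
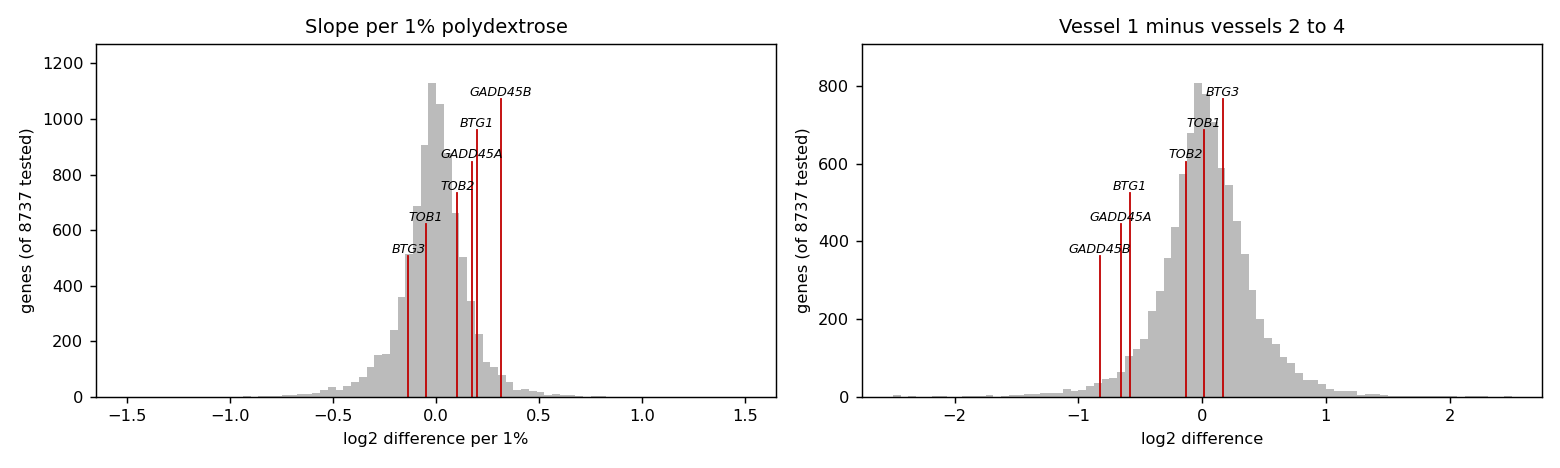
Histograms of the limma estimates of 8737 genes, on the left the log2 slope per 1% polydextrose and on the right vessel 1 minus vessels 2 to 4, with a line for each member; values beyond an axis are counted in its outermost bin. The slope of GADD45B, 0.31, lies in the upper tail, and GADD45B, GADD45A and BTG1 lie in the lower tail on the right.

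Other probe sets of the same genes were a check on these values. GADD45B had 2 more above the signal limit, 209304_x_at and 209305_s_at, with log2 levels of 6.71 and 6.82 in medium and 9.30 and 9.55 with butyrate. Tested over all probe sets, both rose with polydextrose (0.36 and 0.41 per 1%, adjusted p = 0.00491 and 0.00285 by limma) and both were lower in vessel 1 (-0.97 and -1.12, each at adjusted p = 0.000419). The slope and the vessel 1 difference were smaller on the probe set used for the gene, 207574_s_at, than on these. On 209305_s_at the 2% array of vessel 3, at 9.61, was above butyrate, whereas on 207574_s_at every fluid array was below it. BTG1 had 1 more, 200920_s_at, which was higher at 2% than at 0% by 0.47 (adjusted p = 0.0266) and lower in vessel 1 by a difference of -0.64 (adjusted p = 0.00385), but its slope of 0.24 did not pass (adjusted p = 0.0650 by limma). At 1% against 0% 200920_s_at was higher by 0.53 and passed narrowly (adjusted p = 0.0499 by limma). With butyrate it was 1.10 above medium.

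The probe sets of BTG3 did not move together. 205548_s_at followed the one used, 213134_x_at, with 9.95 in medium, 8.68 with NaCl, 8.28 with butyrate and 8.88 to 9.62 in the fluids. 215425_at went the other way, with 6.16 in medium, 6.95 with NaCl, 6.96 with butyrate and 6.86 to 7.45 in the fluids, so that it was lowest in medium. The low level of BTG3 outside medium therefore holds for 2 of its 3 probe sets above the limit, and the mean over its 4 probe sets put butyrate at -0.64 and the 2% fluids at -0.19 from medium. For TOB2 the other probe set, 221496_s_at, was 6.05 in medium, 6.28 with butyrate, 7.22 with NaCl and 5.92 to 6.91 in the fluids, so that its fluids overlapped medium. The other probe set of TOB1, 228834_at, was lowest in medium, at 6.52, as was the one used, 202704_at. It differed otherwise, with 7.34 with NaCl, 7.17 with butyrate and 6.78 to 7.77 in the fluids. Its fluids thus lay on both sides of NaCl and of butyrate, whereas on 202704_at all 12 were above butyrate. The vessel 1 difference was -0.44 on 228834_at, which did not pass in limma's test over all probe sets, against 0.01 on 202704_at.

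**Figure D5:**
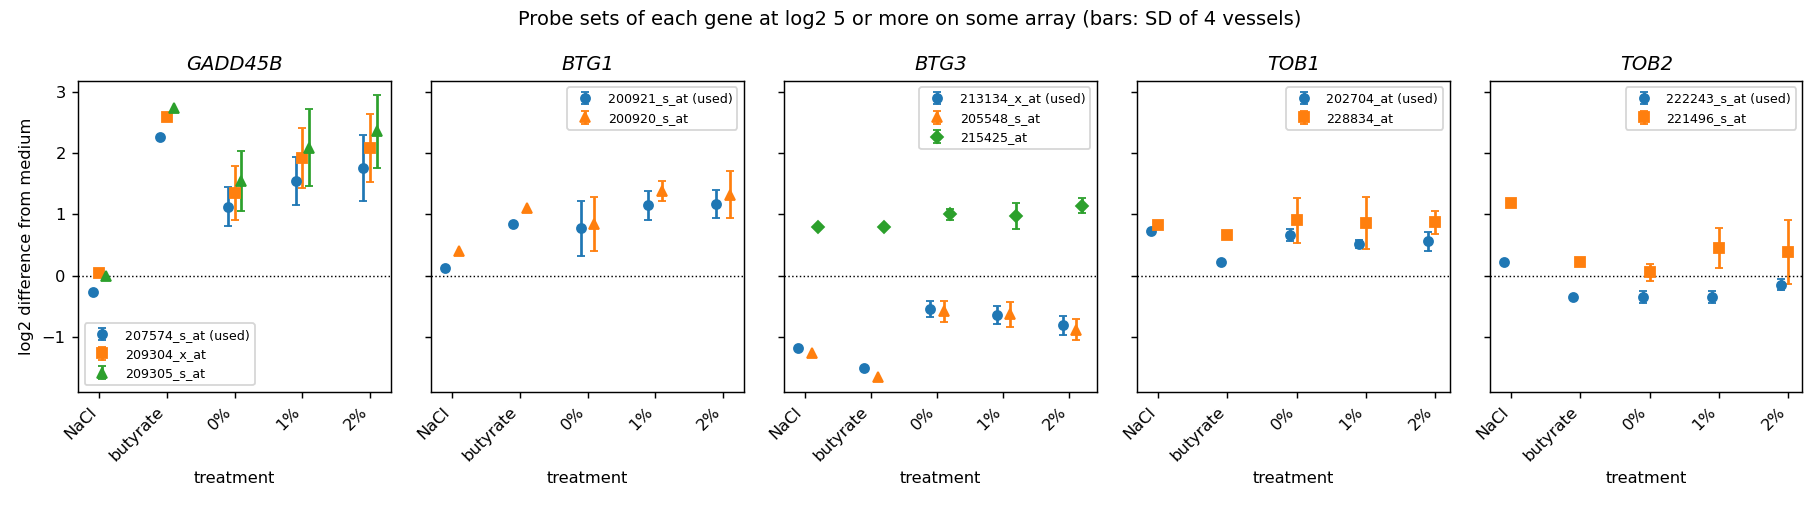
Log2 difference from the medium array for each probe set of 5 genes that reached log2 5 on some array, for NaCl, butyrate and the mean of the 4 fluids at each concentration; bars are the SD over 4 vessels, and NaCl and butyrate are single arrays. The 3 probe sets of GADD45B are above 0 with butyrate and in the fluids, while 215425_at of BTG3 lies above 0 and the other 2 below.

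Partners of the GADD45 proteins and the stress kinases of the MAP3K4 pathway formed a list of 18 genes, of which 15 matched and 12 were tested. With polydextrose 4 fell, 1 rose and 7 did not pass, where 10.3% of all genes fell and 8.5% rose, and the median slope was -0.07 against -0.01 over all genes tested. Cyclin B1 (CCNB1), whose complex with CDK1 drives entry into mitosis, fell by 0.73 per 1% (adjusted p = 0.00153 by limma), from 10.41 ± 0.35 at 0% to 8.96 ± 0.90 at 2% (SD, n = 4). CDK1 fell by 0.47 (adjusted p = 0.00186) and GADD45GIP1, a protein that binds GADD45, by 0.22 (adjusted p = 0.0178 by limma). The p38 family kinase MAPK13 fell by 0.50 (adjusted p = 0.0183), and the cyclin-dependent kinase inhibitor CDKN1A, named after its value was seen, rose by 0.24 (adjusted p = 0.0436 by limma).

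In vessel 1 the 5 of 12 that passed were the same 5 genes with the opposite sign, CCNB1 by 1.30, MAPK13 by 0.90, CDK1 by 0.70, GADD45GIP1 by 0.48 and CDKN1A by -0.54, where 19.3% of all genes were higher and 15.4% lower. With butyrate CCNB1 was lower than medium by a log2 difference of -2.78, at 8.24 against 11.02, and MAPK13 by -2.53. In all 5 of the 12 were lower past 2-fold and 1, CDKN1A, higher, where 15.6% of all genes were in each direction. The other 3 lower were CDK1, GADD45GIP1 and PCNA, named after their values were seen. The median was -0.76 against 0.00 over all genes compared.

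The list of the CCR4-NOT deadenylase and other partners of BTG and TOB proteins held 17 genes, of which 16 matched and 15 were tested. With polydextrose 1 fell and 14 did not pass in limma's test, against 10.3% of all genes that fell, and the median slope was -0.02 against -0.01. At an adjusted p of 0.0473 by limma the regulatory subunit CNOT3 fell by 0.27 per 1%, a call that was lost in 15 of 20 alternatives, and it was near the signal limit, at 5.50 ± 0.14 with 0% and 4.95 ± 0.28 with 2% (SD, n = 4). In vessel 1, 3 of 15 were higher, CNOT3, CNOT9 and PAN3 (the last named after its value was seen), a share near the 19.3% of all genes. With butyrate 3 of 15 were lower past 2-fold, near the 15.6% of all genes: CNOT9 by -1.53, CNOT3 by -1.25 or below, a bound at the signal limit, and PRMT1, a methyltransferase that binds BTG1, named after its value was seen.

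Among 22 targets of p53 20 matched and 18 were tested. With polydextrose 6 rose, 2 fell and 10 did not pass, where 8.5% of all genes rose and 10.3% fell, and the median slope was 0.06 against -0.01. TP53INP1, a stress protein that acts with p53, rose by 0.56 per 1% (adjusted p = 0.00271), the phosphatase PPM1D rose by 0.31 (adjusted p = 0.00380), and the death receptor FAS fell by 0.27 (adjusted p = 0.00485 by limma). BAX, named after its value was seen, was the other that fell. In vessel 1, 7 of 18 were lower and 2 higher, where 15.4% and 19.3% of all genes were, with TP53INP1 at -1.01 and PPM1D at -0.83, and FAS at 0.35 and AEN, named after its value was seen, the 2 higher. With butyrate 4 of 16 were higher past 2-fold and 5 lower, where 15.6% of all genes were in each direction. TP53INP1, under the limit in medium, was higher by at least 2.73 and the RNA-binding protein ZMAT3 by 2.29.

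Of 11 genes known to regulate members of the families 10 matched and 8 were tested. MYC, a transcription factor that drives growth, fell by 0.34 per 1% (adjusted p = 0.00586), while STAT3 rose by 0.19 (adjusted p = 0.0102) and JUN by 0.42 (adjusted p = 0.0316 by limma). EGR1, named after its value was seen, also rose, which made 3 higher, 1 lower and 4 not passing, where 8.5% of all genes rose and 10.3% fell, with a median slope of 0.03 against -0.01. The call for JUN held in 5 of 12 fits that left out 1 array, with adjusted p-values of 0.00655 to 0.118 by limma. In vessel 1 MYC was higher by 0.59 and JUN and STAT3 differed by -0.96 and -0.27, and EGR1 and FOXO1, named after their values were seen, were also lower, so that 4 of 8 were lower and 1 higher where 15.4% and 19.3% of all genes were. With butyrate MYC differed from medium by -2.62, at 8.94 against 11.56, and NFKB1 by -1.85 or below, a bound at the signal limit. ATF4 was also lower and EGR1 higher past 2-fold, which made 3 of 9 lower and 1 higher where 15.6% of all genes were in each direction, and both were named after their values were seen.

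The genes whose log2 levels followed each member most closely over the 15 arrays were found among the 8737 genes by Pearson's r, as a description. They were DDIT3 (r = 0.988), ASNS (0.973) and CCNB1IP1 (0.973) for GADD45A, and SH3GL2 (0.991), SPAG9 (0.987) and ARL14 (0.987) for GADD45B. BTG1 was followed by PNPLA8 (0.977), MAP1LC3B (0.975) and NFIL3 (0.970), and BTG3 by MND1 (0.968), SH3RF1 (0.953) and SKA1 (0.945). For TOB1 they were AUH (0.942), FXYD3 (0.910) and LGALSL (0.896), and for TOB2 SPAG1 (0.875), SIRT1 (0.859) and ZNF330 (0.848). The 6 sets of 3 genes had no member in common. The 15 arrays share treatments and vessels, so these are not 15 independent points.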

How the data were processed

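The authors deposited 1 table of log2 values for 54675 probe sets on 15 arrays, made with GCRMA (background correction, normalization and summary of probes) per the submitters' processing notes, with no version; that the scale is log2 was inferred from values of 0.173 to 14.46. RNA was labelled by the Affymetrix standard protocol per the labels' protocols. The chip description and scan settings are not given in the sources used here. Nothing was normalized again.

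Probe sets with 1 gene symbol (41097; 1801 had several and 11777 none) were reduced to 1 per gene by the highest mean over the 15 arrays. Models were fitted with limma 3.58.1 (R 4.3.3) on the 12 fluid arrays for 8737 genes, with concentration and vessel as factors (concentration linear for the slope), two-sided, with Benjamini-Hochberg adjustment over all genes and a threshold of 0.05. The median residual SD was 0.147 and the moderated degrees of freedom 9.2 with concentration as a factor, 0.159 and 10.3 for the slope, and 0.13 and 8.4 for the slope difference. Vessel is a labelled part of the design: after removing concentration means, the median correlation of 12 same-vessel pairs was 0.376, and 10 were above 0.1. Single arrays were compared with no test where the brighter side was at log2 6 or more, and called from a log2 difference of 1; a side under 5 was set to 5 and the difference given as a bound. The fit was tested on simulated data.

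The members, the 4 lists and the tests were chosen with earlier results of these data known. All members are named, with up to 3 genes per list by the smallest p of the slope, up to 2 by the largest difference with butyrate, and the 3 most similar genes per member. Alternatives were no or a stricter filter, the mean of probe sets, every probe set, renormalization, centring, array weights, an intensity trend with robust prior, no replicate block, fewer arrays, other vessel terms, other limits or control, and leaving out each array. No list gene without a match was analysed here.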

Additional observations from a re-analysis of the deposited data

Results flagged for a closer look

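In 8 of 63 groups of 4 arrays (21 genes at 3 concentrations) 1 array stood apart by Dixon's criterion, for which chance among replicates gives about 1 in 20. The 4 arrays of a group are 4 vessels and not replicates, and 34.7% of genes differed in vessel 1. The genes named from the lists were also chosen by their values in these data. The count therefore cannot be set against the chance rate. All 8 were arrays of vessel 1. GADD45B was lowest there with 1% (9.39, the nearest 10.13) and with 2% (9.37, the nearest 10.40), and TOB1 with 0% (11.09, the nearest 11.26). Among the genes named from the lists, CCNB1 was highest there with 0% (10.94, the nearest 10.26) and with 1% (10.56, the nearest 9.20), and CDK1 with 1% (10.40, the nearest 9.78). PPM1D was lowest there with 1% (7.28, the nearest 8.24), and NFKB1 was highest there with 2% (4.74, the nearest 4.14), under the signal limit of 5 on each of those arrays.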

How the results depend on the processing

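No result changed its direction past a threshold under the alternatives run. For the slope the count of members passing limma, 2, became 1 with no filter or with centring, 4 with array weights and 0 with no replicate block. For 2% against 0% it was 4 with array weights, 0 with no replicate block and 1 on the 8 arrays compared. For 1% against 0% the 1 member became 0 with no filter, with every probe set, with no replicate block and on 8 arrays, and 2 with the mean of probe sets, a trend and robust prior, or array weights. The slope difference in vessel 1 went from 0 to 3 with array weights, whose estimation stopped before convergence in some fits. The count over all genes or probe sets tested also moved under these alternatives. For the slope it was 1643 in the main fit and 0 to 4198 in the alternatives. For 2% against 0% it was 1820 and 0 to 3957, and for 1% against 0% 418 and 0 to 1700. For the slope difference it was 102 and 13 to 2053. Leaving out 1 array gave 1 to 3 members for the slope, 1 to 3 for 2% against 0%, 0 to 2 for 1% against 0%, 0 for 2% against 1%, 3 for vessel 1 and 0 for the slope difference, and over all genes 539 to 2693, 656 to 3058, 0 to 1185, 0 to 579, 1656 to 3704 and 0 to 375 in that order. The cause of these changes was not tested.

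Of members past 2-fold from medium, butyrate's 2 became 1 with NaCl as the control and 3 at 1.5-fold, and with the mean of probe sets they were GADD45B and BTG1. For BTG1 that mean includes 1559975_at, which was under log2 5 on every array. NaCl's 1 became 0 with the mean of probe sets and 3 at 1.5-fold. The 1 of the 0% fluids became 0 with the mean of probe sets, which for GADD45B includes 1 under log2 5 on every array. It became 3 at 1.5-fold and 2 against NaCl. The 2 of the 1% and of the 2% fluids became 4 each at 1.5-fold and 3 each against NaCl. No share over all genes was computed under these alternatives, so their counts cannot be set against the shares past 2-fold from medium. The fits without the block were not run for the vessel comparisons, which it defines. Signal limits GADD45G, CNOT3, NFKB1, MAPK13 and TP53INP1, which lay near or under log2 5 on some arrays.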
